A study of Mus musculus with 32 samples.

Results

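The comparison described here is that of messenger RNA levels in the livers of mice labelled Mettl14 KO and of floxed controls, over both kinds of surgery. It used the 16 input libraries of the study's 32, which are RNA-seq libraries of bulk liver RNA made with a stranded mRNA kit. The same 16 animals also gave the IP libraries, for which RNA was broken into short pieces, those bearing m6A were captured by an antibody, and a different library kit was used. Of the inputs, 8 came from Mettl14 KO animals (4 after sham surgery and 4 after hepatectomy, the removal of part of the liver) and 8 from animals labelled flox control (4 and 4). The animals were 72 to 73 days old in 3 of these 4 groups and 71 to 77 days old among the sham flox animals. The labels do not name the Cre driver, and so not the cells in which Mettl14 was to be lost, nor the sex of the animals. The table holds 55421 genes, of which 17295 had any input count, and the 2774 genes with a mean of at least 50 CPM over the 16 inputs (counts scaled to a library total of 1000000) were kept. Rtp3, Mthfd1 and Mxi1, at 49.83, 49.85 and 49.88 CPM, lay just outside this limit, and Ggcx, Rrp1 and Rab33b, at 50.03, 50.04 and 50.05 CPM, just inside it.

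N6-methyladenosine, or m6A, is a methyl mark placed on adenosines of mRNA by a complex in which METTL3 is the catalytic subunit and METTL14 its partner that helps bind the RNA. Reader proteins recognise the mark and can change the stability, splicing or translation of the marked transcript, so loss of the writer can in principle shift mRNA levels in either direction. In hepatocytes a few very abundant transcripts, for plasma proteins, apolipoproteins and enzymes of metabolism, make up much of the mRNA.

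The input libraries held 8177746 to 12533871 counts each. Mettl14 (ENSMUSG00000028114) had a count of 0 in 16 of 16 inputs, so its level checks no label. For counting error alone, the upper limit of a count of 0 was 0.239 to 0.367 CPM depending on the library. That limit does not cap the level itself. A count of 0 in at least 1 input was also found in 1545 kept genes, whose mean was at least 50 CPM. The 10 hepatocyte markers were all kept and summed to 66488 to 75394 CPM in flox and 60728 to 77169 CPM in KO inputs, while all 5 adipocyte markers, 7 of 8 neutrophil markers and the duct marker Krt19 were at 0 in every input. The number of genes with 10 or more counts was 6555 ± 1651 in KO and 4907 ± 599 in flox (mean ± SD, n = 8 each; exact 2-sided permutation within surgery p = 0.018, Benjamini-Hochberg 0.0763 over 20 measures). Their range was 4176 to 9354 genes in KO and 4340 to 6156 in flox, so the groups overlapped. The TMM scaling factor, which corrects library totals for differences in composition, was 0.933 to 0.998 in KO and 1 to 1.09 in flox, with no overlap (exact permutation p = 0.000408, the smallest these samples can give; Benjamini-Hochberg 0.00816).

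**Figure D1:**
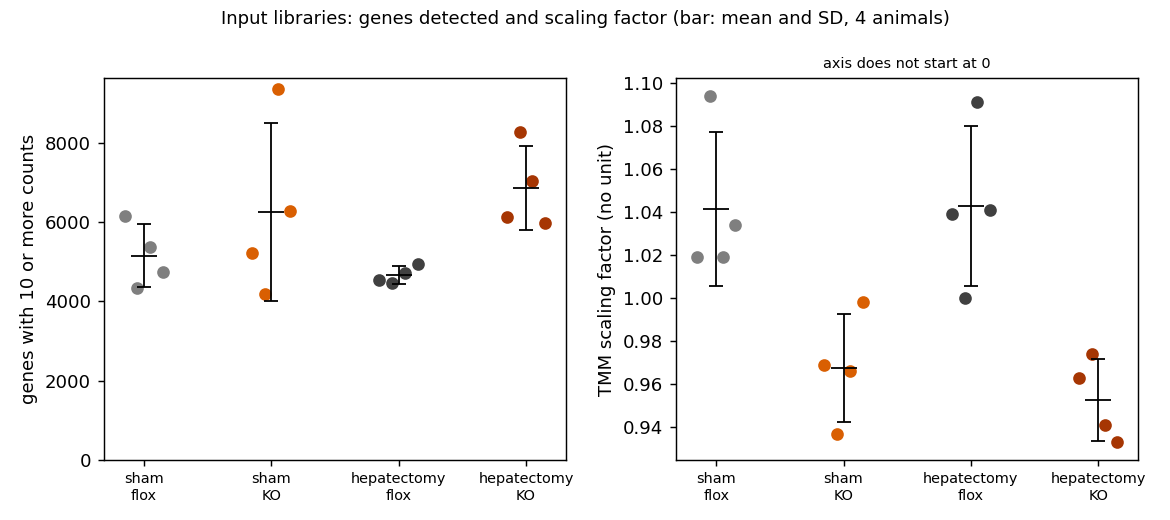
Each point is 1 input library, grouped by surgery and genotype, with the mean and SD of 4 animals as bars; the left axis counts genes with 10 or more counts and the right axis is the TMM scaling factor, without unit and not starting at 0. All 8 KO libraries have a lower scaling factor than all 8 flox libraries, and the libraries with the most detected genes (9354 and 8278) are KO.

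Stellate cell and fibroblast markers summed to 470 ± 128 CPM in flox and 777 ± 287 CPM in KO inputs (exact permutation p = 0.0135, Benjamini-Hochberg 0.0763; 5 of 12 markers kept). Cholangiocyte markers summed to 163 ± 104 and 339 ± 210 CPM (exact permutation p = 0.0527, Benjamini-Hochberg 0.132; 2 of 8 kept). In bulk tissue a change in the number of cells of a type and a change in RNA per cell cannot be told apart. The part of these differences in the results below was not tested.

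No gene passed an adjusted p of 0.05 between KO and flox inputs over both surgeries (edgeR's quasi-likelihood test with surgery as covariate, Benjamini-Hochberg over 2774 genes): 0 of 2774, or 0%. At an unadjusted p under 0.05 there were 52 genes (1.87%), 35 higher in KO (1.26%) and 17 lower (0.613%). Where no gene differs and p-values are uniform, a share of about 0.05 lies under that limit, and these 52 are no excess over it. The share was well below 0.05, so the p-values were not uniform. The number of genes therefore does not decide whether the 52 arose by chance. The lowest adjusted p of the edgeR fit was 0.564. No gene had all 8 KO libraries above, or all 8 below, all 8 flox libraries (0% each way). The median log2 difference of all kept genes was 0.123, with 1623 genes above 0 and 1151 below. That median followed the settings: it was 0.000551 with library totals alone, 0.0552 with upper-quartile factors, 0.537 with voom on the same genes and 0.446 over the genes kept by filterByExpr. List medians are best read against the median of all genes under the same setting.

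Counts of 0 and spread between libraries of a group were common, which limits every result below. Each animal gave a single input library, so spread between animals and spread from making the libraries cannot be told apart. Of the kept genes, 1545 had a count of 0 in at least 1 input library although their mean was at least 50 CPM, and 939 had 10 or more counts in all 16. In those 939 genes the median standard error of the log2 difference was 0.471 and the median coefficient of variation within a group was 48.6%; in the other 1835 genes these were 1.37 and 93.2%. Pairs of libraries of the same group and of different groups had overlapping ranges. Over the kept genes the correlation of log2 levels was 0.316 to 0.537 within groups (median 0.378, 24 pairs). Between groups it was 0.307 to 0.567 (median 0.375, 96 pairs). These are correlations across genes, which are not independent replicates. The number of calls depended on the tool and the filter. DESeq2 called 9 of the same 2774 genes (6 higher in KO and 3 lower), limma's voom with quality weights called 1, edgeR after filterByExpr called 6 of 8769 genes, and edgeR without a filter called 10 of 17295.

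**Figure D2:**
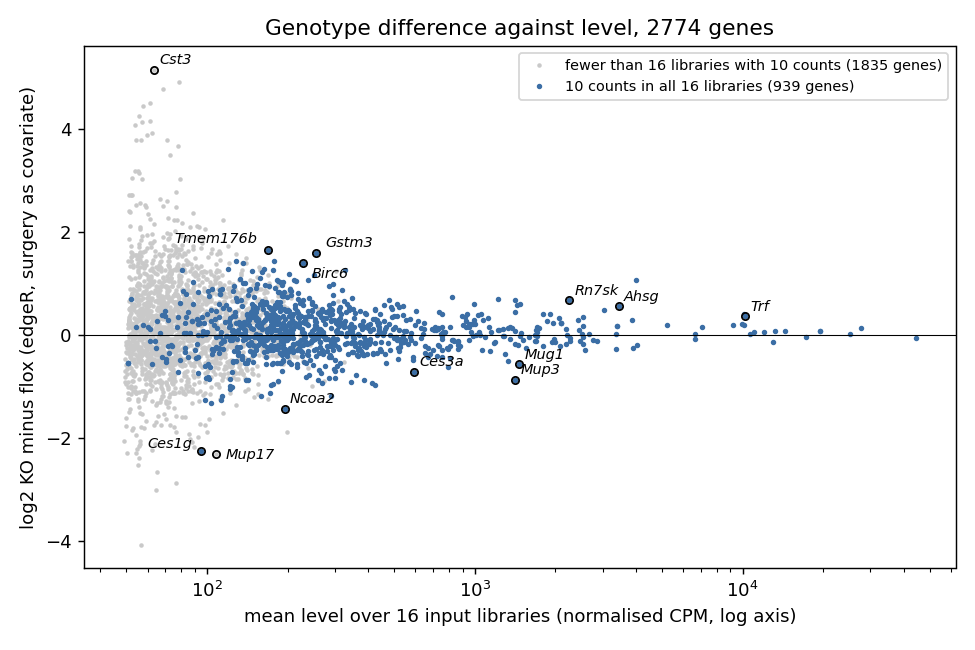
Each point is 1 of the 2774 kept genes, with its mean level over the 16 inputs (normalised CPM, log axis) against the log2 difference KO minus flox; blue points have 10 or more counts in all 16 libraries and grey points fewer. The spread narrows as the level rises, and Trf, Ahsg, Rn7sk, Mup3 and Mug1 lie away from 0 at high level.

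Below, levels are given as normalised CPM, which is the count divided by the library total and the TMM factor, times 1000000. All KO libraries had a lower TMM factor than all flox libraries, so this scaling raises KO levels relative to flox. Statements on overlap of groups, here and above, and counts of KO values beyond flox values hold on this scale. They can differ with library totals alone. Of all kept genes, 2.88% did not overlap in sham animals and 3.35% in hepatectomised animals. None of the differences over both surgeries passed the threshold in the edgeR fit. The genes described one by one are among the 52 at an unadjusted p under 0.05 unless said otherwise, and their adjusted p in edgeR is 1 where none is given. They are the 15 with the smallest p in each direction, the members of gene lists with the smallest p, and a few picked once their values had been looked at, which is said beside each. Because p was computed on these same values, counts of KO animals above or below the flox median describe the genes and add no support. The share of all kept genes with such counts was not computed.

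Among the secreted proteins of hepatocytes, the genes with the smallest p lay on both sides. Ahsg (ENSMUSG00000022868, chromosome 16, 22891277 to 22899449), which encodes fetuin-A, a plasma inhibitor of calcification, stood at 3135, 2152, 2349 and 2513 normalised CPM in sham flox and at 4125, 2430, 3436 and 3940 in sham KO. After hepatectomy it stood at 2997, 2953, 3090 and 2977 in flox and at 5240, 6151, 4062 and 3553 in KO. On this scale the hepatectomy groups did not overlap, beside 3.35% of all kept genes, and in sham animals 1 KO library lay within the flox range. Once the TMM factors are undone, hepatectomised KO replicate 4 lies below hepatectomised flox replicate 3, so those groups overlap. The fitted log2 difference was 0.56 (SE 0.14, 1.47-fold, adjusted p = 0.564, edgeR). Over the alternatives run, its log2 difference ranged from 0.45 to 0.64, and its adjusted p fell to 0.00365 with filterByExpr and 0.00543 with no filter.

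Trf (ENSMUSG00000032554, chromosome 9, 103204001 to 103230444), the plasma iron carrier transferrin, stood at 9199, 6584, 6920 and 9129 in sham flox and at 8672, 9299, 11464 and 11013 in sham KO. After hepatectomy the flox livers gave 10727, 10018, 10251 and 8720, and the KO livers 12912, 13433, 10877 and 14506. On this scale all 4 hepatectomised KO animals were above all 4 hepatectomised flox animals, while the sham groups overlapped. Once the TMM factors are undone, hepatectomised KO replicate 3 lies below hepatectomised flox replicates 1 and 3. The hepatectomy groups then overlap. The log2 difference was 0.36 (SE 0.1, 95% interval 0.17 to 0.56, 1.29-fold), with adjusted p = 0.59 in the edgeR fit. It was 0.35 in sham and 0.38 in hepatectomised animals. Relative to the median gene the difference was 0.24. Trf passed with voom (0.41, adjusted p = 0.0217) and in edgeR with filterByExpr (0.46, adjusted p = 6.8e-05) and with no filter (0.44, adjusted p = 2.23e-08). It did not pass with DESeq2 (adjusted p = 0.327). The median of all genes was 0.537 with voom and 0.446 with filterByExpr. Trf thus lay below the median gene with voom and close to it with filterByExpr.

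Itih2, a heavy chain of the inter-alpha-trypsin inhibitors that bind hyaluronan, ranged from 576 to 1833 normalised CPM in flox (median 1139) and from 1322 to 2607 in KO (median 1724). All 8 KO animals were above the flox median, and the ranges overlapped (log2 0.6, SE 0.2). Cp, the plasma ferroxidase ceruloplasmin, had medians of 1149 and 1774 (log2 0.44, SE 0.18). On the other side lay Mug1, a murinoglobulin that traps proteases, at 1201 to 2764 in flox (median 1733) and 906 to 2132 in KO (median 972). Hepatectomised KO livers gave 951, 943, 906 and 958, all below the lowest flox value of either surgery. Its log2 difference was -0.56 (SE 0.16, 0.677-fold, adjusted p = 0.845, edgeR), and with DESeq2 it passed (-0.65, adjusted p = 0.0233).

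Rbp4, the plasma carrier of retinol, was 454 ± 116 in flox and 265 ± 74.4 in KO (mean ± SD, n = 8 each), with all 8 KO animals below the flox median. The fitted difference of Rbp4 was -0.78 (SE 0.28). Ttr, which carries thyroid hormone and binds that retinol carrier, was 3693 ± 596 and 3049 ± 491 (log2 -0.27, SE 0.13). Of the 18 kept secreted carriers, 3 were higher and 2 lower at an unadjusted p under 0.05, beside 1.26% and 0.613% of all kept genes. The list's median was -0.0876, against 0.123 for all kept genes. Albumin (Alb), a plasma carrier too, gave -0.04 (SE 0.12). Of the 12 kept genes of iron handling, Trf and Cp were the 2 at that p, both higher, beside 1.26% of all kept genes. The median of the iron list was 0.197.

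**Figure D3:**
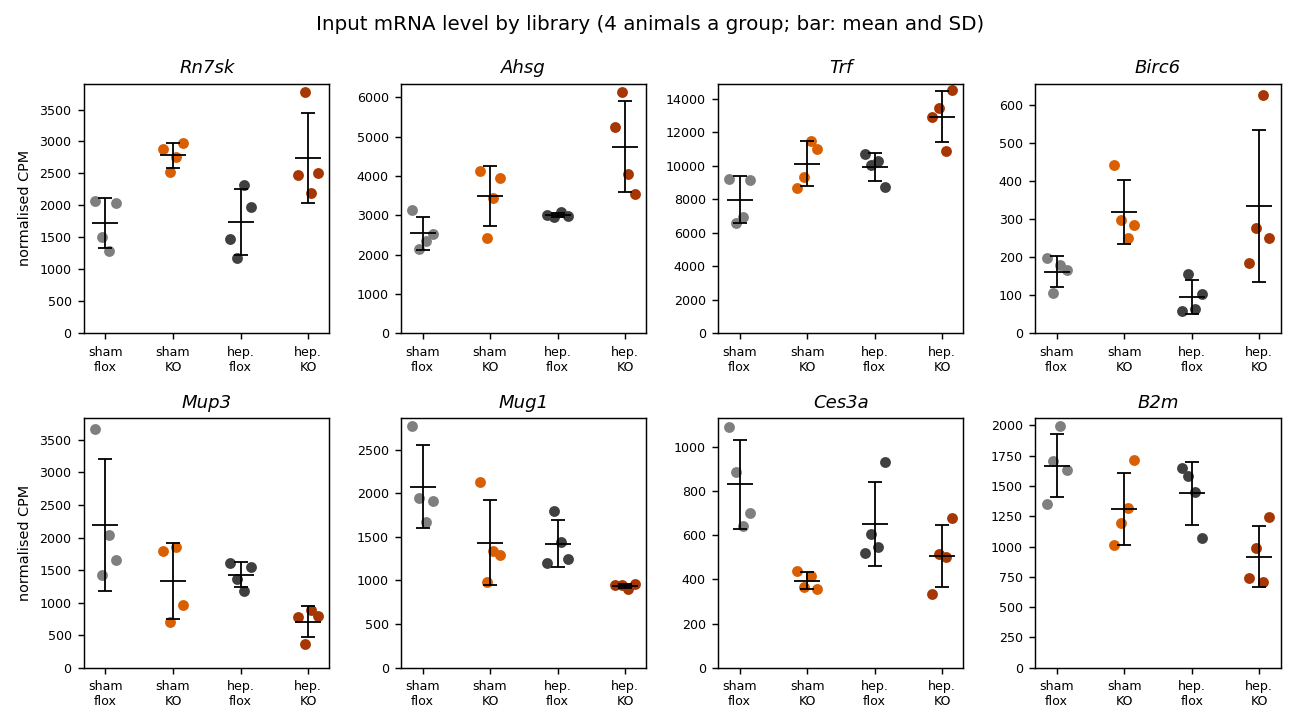
Input level (normalised CPM, axes from 0) of the 4 named genes with the smallest p among those higher in KO (top row) and among those lower in KO (bottom row); each point is 1 animal, and bars give the mean and SD of the 4 animals of a group. KO and flox animals separate within each surgery for Birc6 alone, and the groups of the other genes overlap in at least 1 surgery.

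Birc6 (ENSMUSG00000024073, chromosome 17, 74528295 to 74703356), a very large ubiquitin ligase of the inhibitor-of-apoptosis family, was the gene in which all 4 KO animals were above all 4 flox animals in each surgery (1 of 2774 genes, 0.036%; 0 genes the other way, 0%). Its values were 197, 105, 179 and 167 normalised CPM in sham flox and 443, 299, 250 and 285 in sham KO. After hepatectomy they were 58.5, 155, 62 and 104 in flox and 184, 277, 628 and 249 in KO. The lowest KO value, 184, lay below the highest flox value, 197, so the 8 and 8 did overlap across surgeries. Of the 4900 splits of the animals within surgery, 1 sets all KO above all flox in each. A gene of this kind can therefore arise by chance among 2774. The log2 difference was 1.4 (SE 0.41, 2.63-fold, adjusted p = 0.845 in edgeR and 0.053 in DESeq2). In the IP libraries of the same animals Birc6 differed by -0.2 (SE 0.18).

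Non-coding RNAs were among the genes with the smallest p. Rn7sk (ENSMUSG00000065037, chromosome 9, 78175303 to 78175633), the 7SK RNA that holds the elongation factor P-TEFb inactive, stood at 2067, 1506, 1277 and 2040 in sham flox and 2884, 2523, 2758 and 2968 in sham KO. After hepatectomy it stood at 1473, 1168, 2324 and 1977 in flox livers and 2482, 3775, 2198 and 2505 in KO livers. On this scale the sham groups did not overlap, beside 2.88% of all kept genes, and 7 of 8 KO values were above every flox value. Once the TMM factors are undone, the sham groups still do not overlap, but fewer KO values lie above every flox value. The log2 difference was 0.68 (SE 0.16, 1.6-fold, adjusted p = 0.564, edgeR), and it passed with DESeq2 (0.58, adjusted p = 0.0466), filterByExpr (0.76, adjusted p = 0.015) and no filter (0.75, adjusted p = 0.0234). The unnamed ENSMUSG00000065911 (chromosome 15, 93234363 to 93234700), chosen after its values were seen, was 1147 ± 218 in flox and 1726 ± 278 in KO (log2 0.59, SE 0.15). No class of RNA was matched to it, so whether it is non-coding was not determined. Malat1, an abundant nuclear long non-coding RNA, was 3150 to 3816 in flox and 3456 to 4985 in KO (log2 0.28, SE 0.11), and its 4 hepatectomised KO values, 4985, 4562, 4287 and 4882, were above every flox value.

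Genes of protein synthesis were mostly above 0, without any of them passing. Eef1a1, which brings aminoacyl-tRNA to the ribosome, ranged from 674 to 1336 normalised CPM in flox (median 858) and from 702 to 2612 in KO (median 1455; log2 0.7, SE 0.23). Eef2, the translocation factor of elongation, was 223 to 1015 in flox (median 685) and 746 to 1577 in KO (median 959; log2 0.74, SE 0.26). Pabpc1, which binds poly(A) tails, was 197 ± 120 and 394 ± 169 (log2 0.99, SE 0.4). In each of Eef2 and Pabpc1 all 8 KO animals were above the flox median, while the ranges overlapped. Of 23 kept translation factors these 3 were higher and 0 lower at an unadjusted p under 0.05, beside 1.26% and 0.613% of all kept genes. The list's median was 0.436 against 0.123 for all kept genes. Above 0 were 16 of 23 (15 with library totals alone), beside 1623 of all 2774. With filterByExpr the median was 0.53 against 0.446 for all genes. By surgery it was 0.155 against 0.0884 in sham and 0.426 against 0.165 in hepatectomised animals.

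Of the 78 cytosolic ribosomal protein genes 52 were kept, 46 of them above 0, and their median log2 difference was 0.528 against 0.123 for all kept genes. With library totals alone 41 of 52 were above 0 and the median was 0.414, against 0.000551 for all genes. With voom the list's median was 1.29 against 0.537 for all genes, and with filterByExpr, which kept all 78, 0.728 against 0.446. The 12 members with 10 counts in all 16 inputs had a median of 0.265, against 0.073 for the 939 such genes. Among those 12 were Rpl41 at 0.1 (SE 0.27), Rpl21 at 0 (SE 0.37) and Rpl13 at 0.35 (SE 0.51). Of the 52, 1 member was higher at an unadjusted p under 0.05, beside 1.26% of all kept genes. That member, Rps12, was at 0.193 to 64.4 normalised CPM in flox and 9.67 to 198 in KO (log2 2.6, SE 1.15). In the IP libraries of the same animals the 52 genes had a median of 1.06, against 0.0506 for all kept genes, and 12 of them passed as higher, beside 3.28% of all kept genes. Ribosomal protein genes have many near-identical pseudogenes, so their counts depend on how shared reads were assigned.

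Genes induced through the antioxidant factor Nrf2, which controls glutathione synthesis and conjugation, lay above 0 in 8 of 10 kept members, with a median of 0.736 (7 of 10 with library totals alone). In sham animals the list's median was 0.0722, below the 0.0884 of all kept genes, and after hepatectomy it was 0.992 against 0.165. The difference between the surgeries was not tested for the list. Over both surgeries, 4 of the 10 were higher and 0 lower at an unadjusted p under 0.05, beside 1.26% and 0.613% of all kept genes. Gstm3, a glutathione transferase, was 19.5, 207, 153 and 140 in sham flox and 221, 121, 114 and 377 in sham KO, which overlapped. After hepatectomy it was 230, 15.7, 88.7 and 70.9 in flox and 710, 956, 417 and 248 in KO, which did not on this scale. Once the TMM factors are undone, hepatectomised KO replicate 4 lies below hepatectomised flox replicate 1. Its log2 difference was 1.6 (SE 0.57, 3.03-fold), with 0.68 in sham and 2.52 in hepatectomised animals, a difference between surgeries that did not reach an unadjusted p of 0.05.

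Gstm1, of the same enzyme family, was 546 to 1115 in flox and 742 to 1925 in KO (log2 0.61, SE 0.21). Gclc, the catalytic subunit of the first enzyme of glutathione synthesis, was 202 ± 153 and 455 ± 214 (log2 1.27, SE 0.47). Srxn1, sulfiredoxin, which restores oxidised peroxiredoxins, was 107 ± 91.7 and 245 ± 198 (log2 1.26, SE 0.57). The other members did not reach that p, among them Gclm, the regulatory subunit of the same enzyme as Gclc, at -0.52 (SE 0.94) and Txnrd1, a thioredoxin reductase, at -0.26 (SE 1.19). Reads of the Gstm genes can be shared among them, so their single values are uncertain. Among the cytochromes P450 of drug metabolism 1 of 22 kept genes was higher at that p, beside 1.26% of all kept genes, and the list's median was -0.0236. It was Cyp3a11, an enzyme inducible by many drugs, at 1568 to 3605 in flox and 2457 to 4807 in KO (log2 0.48, SE 0.17).

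Aqp9, the channel through which hepatocytes take up glycerol, was 215, 178, 300 and 141 in sham flox and 187, 306, 332 and 325 in sham KO. After hepatectomy it was 144, 299, 263 and 211 in flox and 680, 487, 556 and 503 in KO, without overlap. The log2 difference in input was 0.87 (SE 0.31), while in the IP libraries of the same animals it was -1.08 (SE 0.22, adjusted p = 0.00773, edgeR). Tmem176b, a transmembrane protein, was 85.4 ± 63.2 in flox and 253 ± 159 in KO (log2 1.65, SE 0.55), all 8 KO animals being above the flox median. Igfbp1, a binding protein of insulin-like growth factors, was 151 ± 99.7 and 351 ± 212 (log2 1.17, SE 0.53), with overlapping ranges.

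The 13 mRNAs of the mitochondrial genome, which encode subunits of the respiratory chain, were all above 0 (median 0.18) with TMM factors. With library totals alone 9 of 13 were above 0, and relative to the median of all genes the list's median was 0.0574. With voom it was 0.157 against 0.537 for all genes, and with filterByExpr 0.275 against 0.446, so that it lay below that of all genes. The 2 at an unadjusted p under 0.05, beside 1.26% of all kept genes higher, were mt-Co1, of cytochrome oxidase (log2 0.41, SE 0.15), and mt-Nd1, of complex I (0.22, SE 0.1). In edgeR mt-Co1 passed with filterByExpr (0.5, adjusted p = 0.015) and with no filter (0.49, adjusted p = 3.53e-10). With no filter mt-Nd1 passed too (0.3, adjusted p = 0.00701). Neither passed with DESeq2 or voom. For mt-Co1 sham flox animals gave 12785, 7688, 8030 and 8448 normalised CPM and sham KO animals 9627, 6882, 11626 and 11054. Hepatectomised flox animals gave 9366, 7806, 7351 and 7521 and hepatectomised KO animals 14889, 17021, 12985 and 8548. In the hepatectomised pair 3 of 4 KO values were above the flox range and the fourth was inside it.

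The major urinary proteins (Mup) are small pheromone carriers made in mouse liver, most of all in males and under pulses of growth hormone, from a cluster of near-identical genes on chromosome 4. Mup3, Mup11 and Mup17 were the 3 of 15 kept male-biased liver genes that were lower at an unadjusted p under 0.05, with 0 higher, beside 0.613% and 1.26% of all kept genes. Their promoters are shown because these members of 1 cluster lay together: each line gives the 250 bases before the transcription start from RefSeq (GRCm38.p6, minus strand, chr4:62087318-62087567 for Mup3, chr4:60662396-60662645 for Mup11 and chr4:61595833-61596082 for Mup17). Capitals mark the 4 runs of at least 15 bases that all 3 share, 74 of the 250 bases in each.
Mup3: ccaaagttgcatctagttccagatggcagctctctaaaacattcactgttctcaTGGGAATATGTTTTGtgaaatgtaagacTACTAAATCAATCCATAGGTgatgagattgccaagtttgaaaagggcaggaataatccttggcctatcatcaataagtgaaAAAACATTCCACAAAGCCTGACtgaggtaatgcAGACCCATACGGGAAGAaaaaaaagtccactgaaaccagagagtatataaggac
Mup11: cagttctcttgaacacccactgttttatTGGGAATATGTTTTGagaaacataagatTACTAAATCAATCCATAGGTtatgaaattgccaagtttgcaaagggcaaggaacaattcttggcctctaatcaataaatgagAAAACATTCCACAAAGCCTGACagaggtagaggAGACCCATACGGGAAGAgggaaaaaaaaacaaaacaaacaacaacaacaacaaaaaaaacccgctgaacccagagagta
Mup17: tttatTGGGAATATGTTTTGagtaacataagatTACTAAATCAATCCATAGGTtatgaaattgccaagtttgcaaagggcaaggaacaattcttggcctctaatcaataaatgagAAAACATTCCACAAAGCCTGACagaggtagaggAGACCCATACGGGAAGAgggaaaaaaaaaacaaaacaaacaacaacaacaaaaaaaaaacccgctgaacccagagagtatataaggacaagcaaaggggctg
The runs occur on either strand in 9 to 12 of the 32851 promoters of that length searched (0.0274% to 0.0365%), and each of those promoters belongs to a Mup gene. Most of the runs are also found before Mup2, whose log2 difference was 1.04, so they are not particular to the Mup genes lower in KO. The letters describe how alike the genes are and do not show that a factor binds there. Reads from the coding parts of such genes can fit several of them, so the values of single Mup genes are uncertain.

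Mup3 (ENSMUSG00000066154, chromosome 4, 62083476 to 62087342) stood at 3666, 1426, 2044 and 1650 normalised CPM in sham flox and at 1799, 701, 1850 and 966 in sham KO. In hepatectomised animals it stood at 1615, 1370, 1186 and 1541 in flox and at 778, 364, 890 and 801 in KO. The hepatectomy groups did not overlap and 6 of 8 KO values were below every flox value. The log2 difference was -0.87 (SE 0.23, 95% interval -1.32 to -0.42, 0.548-fold, adjusted p = 0.564, edgeR). DESeq2 called it (-0.95, adjusted p = 0.0233).

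Mup11 was 165 to 1125 in flox (median 364) and 35.6 to 305 in KO (median 140; log2 -1.19, SE 0.43). Mup17 was 3.34 to 362 in flox (median 196) and 0.256 to 103 in KO (median 26.3; log2 -2.31, SE 1.06). All 8 KO animals were below the flox median in both, with overlapping ranges. Outside the 52, Mup7 gave -0.68 (SE 0.43) and Mup1 -0.26 (SE 1.1), while Mup2 lay the other way, at 126 ± 68.7 in flox and 258 ± 155 in KO (1.04, SE 0.54, not among the 52).

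Over the 15 kept male-biased genes the median was -0.481, with 13 below 0; it was -0.603 with library totals alone, -0.563 with upper-quartile factors and -0.582 with voom, again with 13 below 0 in each. By surgery the list's median was -0.725 (sham) and -0.17 (hepatectomy), a difference that was not tested. Other members were Slco1a1, an uptake transporter of organic anions, at -1.21 (SE 0.93), Selenbp2 at -0.55 (SE 0.62) and Cyp2d9, a testosterone hydroxylase, at -0.53 (SE 0.5). In the IP libraries of the same animals the same 15 genes had a median of -2.67, against 0.0506 for all kept genes, and 9 of them passed as lower, beside 3.17% of all kept genes. Only 1 of the female-biased list was kept, the prolactin receptor gene Prlr, with a log2 difference of 0.0326 (-0.0618 with library totals alone). Car3, a carbonic anhydrase that is abundant in liver, was 222 to 1431 in flox (median 496) and 76.1 to 387 in KO (median 323), with all 8 KO animals below the flox median (log2 -0.97, SE 0.35).

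Carboxylesterases, which hydrolyse esters of lipids and drugs in the endoplasmic reticulum, lay below 0 in 7 of 8 kept members over both surgeries (median -0.474; -0.583 with library totals alone and -0.819 with voom). The list's median was -1.01 in sham and 0.0676 in hepatectomised animals, so it was not below 0 after hepatectomy, and with filterByExpr, which kept 11 members, it was -0.166 with 4 above 0. At an unadjusted p under 0.05, 2 of the 8 were lower and 0 higher, beside 0.613% and 1.26% of all kept genes. Ces3a (ENSMUSG00000069922, chromosome 8, 105048601 to 105058413) was 1091, 885, 641 and 702 in sham flox and 438, 367, 416 and 356 in sham KO, without overlap. After hepatectomy it was 521, 605, 546 and 931 in flox and 336, 513, 502 and 677 in KO, with 1 KO value inside the flox range. Its log2 difference was -0.72 (SE 0.23, 0.609-fold), -1.07 in sham and -0.36 in hepatectomised animals, and DESeq2 called it over both (-0.8, adjusted p = 0.0364). Ces1g was 14.1 to 338 in flox and 2.09 to 101 in KO (log2 -2.26, SE 1.02). Ces2e lay the other way, at 1.28 (SE 1.31).

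Several regulators and other genes were lower in KO at an unadjusted p under 0.05. B2m, the light chain of MHC class I molecules, was 1070 to 1991 in flox (median 1607) and 707 to 1712 in KO (median 1103; log2 -0.5, SE 0.17). Ncoa2, a coactivator of nuclear receptors, was 110 to 536 in flox (median 262) and 45.4 to 254 in KO (median 95; log2 -1.43, SE 0.5). Prox1 and Xbp1 were the 2 of 13 kept hepatocyte transcription factors at that p, both lower, beside 0.613% of all kept genes. Prox1, which also acts in liver development, was 555 ± 134 in flox and 379 ± 113 in KO (log2 -0.55, SE 0.26). Xbp1, a factor of the unfolded protein response, was 452 ± 215 and 238 ± 146 (log2 -0.91, SE 0.42). Hnf4a and the other transcription factors kept did not reach that p, and the list's median was -0.173.

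Kmo, an enzyme of tryptophan breakdown, was 382 ± 185 in flox and 219 ± 92.5 in KO (log2 -0.84, SE 0.37). It was the 1 of 30 kept genes of the urea cycle and amino acid breakdown at that p, where 0.613% of all kept genes were lower. Ptma, the chromatin-associated prothymosin alpha, was 536 ± 239 and 291 ± 124 (log2 -0.94, SE 0.35). Ppig, a peptidyl-prolyl isomerase of the nucleus, was 347 ± 164 and 191 ± 107 (log2 -0.93, SE 0.42). In Ncoa2, Prox1, Xbp1, Kmo and Ptma all 8 KO animals were below the flox median, and in Ppig 5 of 8 were.

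Fibrinogen, the clot-forming plasma protein that is the study's centre of interest, has 3 chains encoded by Fga, Fgb and Fgg. Fga, the gene with the highest of these levels, stood at 35173, 43127, 45690 and 48444 normalised CPM in sham flox and 44457, 58139, 42323 and 40207 in sham KO. After hepatectomy it stood at 53083, 52215, 40587 and 43143 in flox and 39393, 31653, 47264 and 45178 in KO, so that the groups overlapped in both surgeries. The log2 differences over both surgeries were -0.05 for Fga (SE 0.1, 95% interval -0.25 to 0.15), 0.07 for Fgb (SE 0.11, interval -0.15 to 0.28) and 0.02 for Fgg (SE 0.11, interval -0.2 to 0.24). Their signs turned with the surgery and the settings. The median of the 3 was 0.228 in sham and -0.186 in hepatectomised animals, and none of the 3 reached an unadjusted p of 0.05 in the interaction. Over both surgeries all 3 were below 0 with library totals alone, at a median of -0.0976, and all 3 above 0 with filterByExpr, at 0.12. In the IP libraries the differences over both surgeries were -0.81, -0.52 and -0.51, none past the threshold (adjusted p = 0.146, 0.289 and 0.358, edgeR).

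Of the 21 kept acute phase genes, which the liver makes in inflammation, Cp was higher and Saa1 lower at an unadjusted p under 0.05. Beside them stand 1.26% and 0.613% of all kept genes, and the list's median was -0.0192. Saa1, a serum amyloid A protein, was 943 ± 363 in flox and 641 ± 296 in KO (log2 -0.63, SE 0.26), while its close copy Saa2 gave 0.29 (SE 0.19), and reads of the pair can be exchanged. Among the enzymes of the m6A mark 3 of 13 were kept: Wtap, a partner of the writer, at -0.73 (SE 1.78), Zc3h13, another, at 0.03 (SE 0.37), and the eraser Alkbh5 at 0.97 (SE 1.21). Of 7 kept reader genes 0 reached that p, from -0.01 for Ythdf3 (SE 0.5) to 1.25 for Ythdc1 (SE 1.05). The 5 kept p53 targets were above 0 (4 of 5 with library totals alone), with a median of 1.25 but wide errors, as in Cdkn1a, an inhibitor of the cell cycle (1.44, SE 1.26). Of 25 genes of the cell cycle and DNA replication 1 was kept, Mki67, at 0.327.

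**Figure D4:**
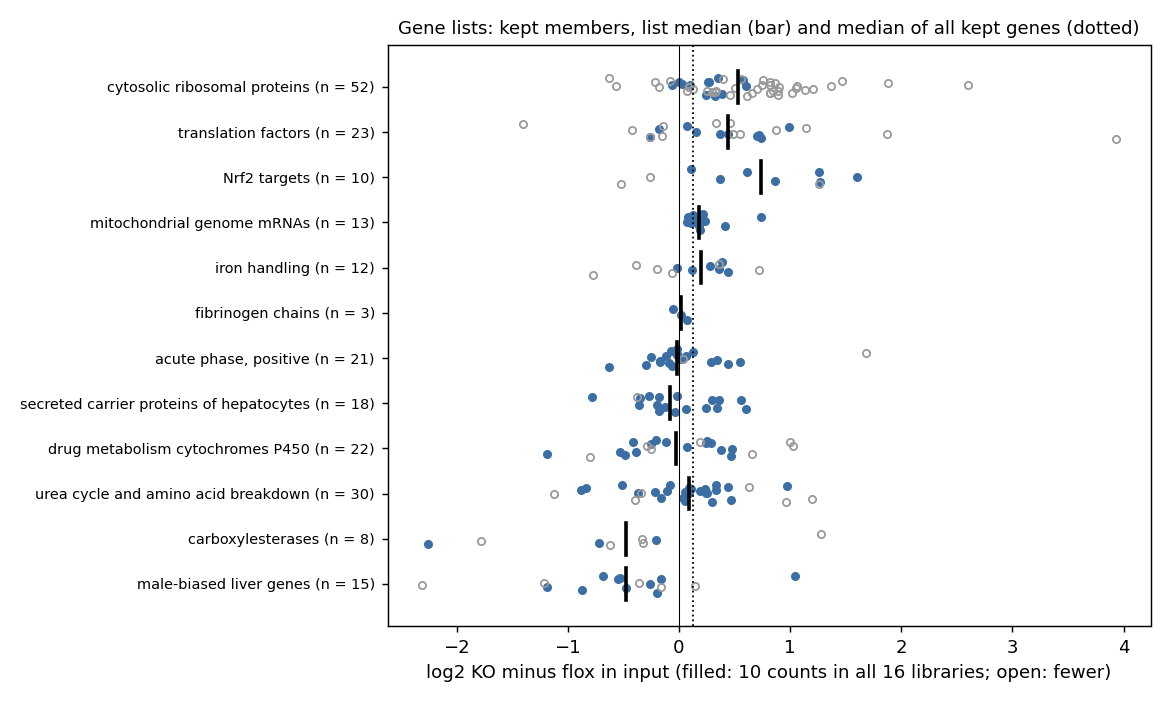
Each point is 1 kept member of the list named on the left, at its log2 difference KO minus flox in input; filled points have 10 or more counts in all 16 libraries, bars are list medians and the dotted line is the median of all kept genes (0.123). The medians of Nrf2 targets (0.736) and ribosomal proteins (0.528) lie to the right of that line and those of carboxylesterases (-0.474) and male-biased genes (-0.481) to its left, with no member past the threshold.

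Some of the largest fitted differences came from genes that were absent from several libraries. Cst3, which encodes the protease inhibitor cystatin C and was chosen after its values were seen, was 0.159, 0.311, 0 and 0 normalised CPM in sham flox and 229, 110, 116 and 72 in sham KO. After hepatectomy it was 0, 69.1, 0 and 51.8 in flox and 83.9, 48.5, 38.9 and 196 in KO. The fitted log2 difference of 5.15 (SE 2.45) depends on the prior count and is no measure of size, and DESeq2 called the gene (adjusted p = 0.0308). In the IP libraries, where Cst3 stood at 39.4 ± 11.9 in flox and 75.1 ± 59.2 in KO, the difference was 0.94 (SE 0.38). Of the 9 genes DESeq2 called, Cst3, Sdf4, Fgd6 and Zfp62 had a count of 0 in 3 or 4 inputs each, the predicted gene Gm10076 was at 0.47 to 20 normalised CPM in flox, and Rn7sk, Mup3, Mug1 and Ces3a were measured in all 16.

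Within each surgery the same test gave 0 of 2774 genes in sham animals (0%) and 1 in hepatectomised animals (0.036%). At an unadjusted p under 0.05 there were 41 genes in sham animals (1.48%), 29 higher (1.05%) and 12 lower (0.433%). After hepatectomy there were 70 (2.52%), 49 higher (1.77%) and 21 lower (0.757%). KO and flox did not overlap in 80 genes in sham animals (2.88%) and in 93 in hepatectomised animals (3.35%). Groups of 4 and 4 animals also separate by chance in part of the genes. The shares at an unadjusted p were below the 0.05 that uniform p-values give where no gene differs, which does not decide whether single genes differ. The gene that passed after hepatectomy was the unnamed ENSMUSG00000097971 (chromosome 17, 39843013 to 39846341), chosen after its values were seen. No name or class of RNA was matched to ENSMUSG00000097971, so whether it is an mRNA was not determined. After hepatectomy the flox livers gave 1852, 1691, 2834 and 2109 normalised CPM and the KO livers 5197, 10751, 10314 and 3784 (log2 1.82, SE 0.34, adjusted p = 0.0497, edgeR). In sham animals it stood at 5083, 2024, 2530 and 1735 in flox and 2764, 2994, 2755 and 5521 in KO (log2 0.3, SE 0.33). The call was lost with library totals alone, with upper-quartile factors, with voom, with a replicate block and with age as a covariate. It was also lost without hepatectomised KO replicate 2 or 3, hepatectomised flox replicate 1, 2 or 4, sham KO replicate 1, 2 or 3, or sham flox replicate 2 or 3, each of which left 0 genes called, while without hepatectomised flox replicate 3 there were 2.

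Whether the genotype difference itself changed with surgery was tested as an interaction, which gave 0 genes past the threshold (edgeR, 0%) and 43 at an unadjusted p under 0.05 (1.55%), 20 with a higher KO minus flox difference after hepatectomy (0.721%) and 23 with a lower one (0.829%). DESeq2 called 8. Among the genes named above, the difference was larger after hepatectomy at that unadjusted p in Eef1a1 (0.23 in sham and 1.17 in hepatectomised animals), mt-Co1 (0.08 and 0.74) and Gstm1 (0.18 and 1.04), each with adjusted p = 1 in edgeR. Ly6e, an interferon-induced membrane protein, gave 0.08 and 1.13 (adjusted p = 1 in edgeR). In Trf (0.35 and 0.38), Rn7sk (0.69 and 0.66) and Mup3 the interaction did not reach that p.

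The IP libraries of the same animals, fitted in the same way over the same 2774 genes, gave 179 genes past the threshold (6.45%), 91 higher (3.28%) and 88 lower (3.17%) in KO, and 619 at an unadjusted p under 0.05 (22.3%). An IP level holds both the level of an mRNA and its pulldown, and the inputs and IP libraries came from different kits. Of the 35 genes higher in input at an unadjusted p under 0.05, 30 were above 0 in IP, 10 passing as higher and 1 as lower. Of the 17 lower in input, 16 were below 0 in IP, and 4 passed. Over all kept genes, 958 of the 1623 above 0 in input were above 0 in IP, and 631 of the 1151 below 0 were below 0 in IP.

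Side by side, the Mup genes gave in IP -3.08 for Mup3 (SE 0.38, adjusted p = 4.6e-05, edgeR) beside -0.87 in input, -5.51 for Mup11 beside -1.19, and -6.89 for Mup17 beside -2.31. Mup3 stood at 2147 ± 1162 in flox and 300 ± 269 in KO IP libraries. Gstm3 was 71.6 ± 56.5 in flox and 905 ± 594 in KO IP libraries (log2 3.76, SE 0.42, adjusted p = 2.4e-05, edgeR) beside 1.6 in input, and Car3 was -2.5 beside -0.97. Rn7sk (1.31), Itih2 (1.03), Rps12 (2.06), Ly6e (1.52), Srxn1 (1.09) and Malat1 (0.7) passed in IP as higher, while Trf (0.35, adjusted p = 0.446) and Ahsg (0.55, adjusted p = 0.101) did not (edgeR). The difference between an input and an IP value was not tested.

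**Figure D5:**
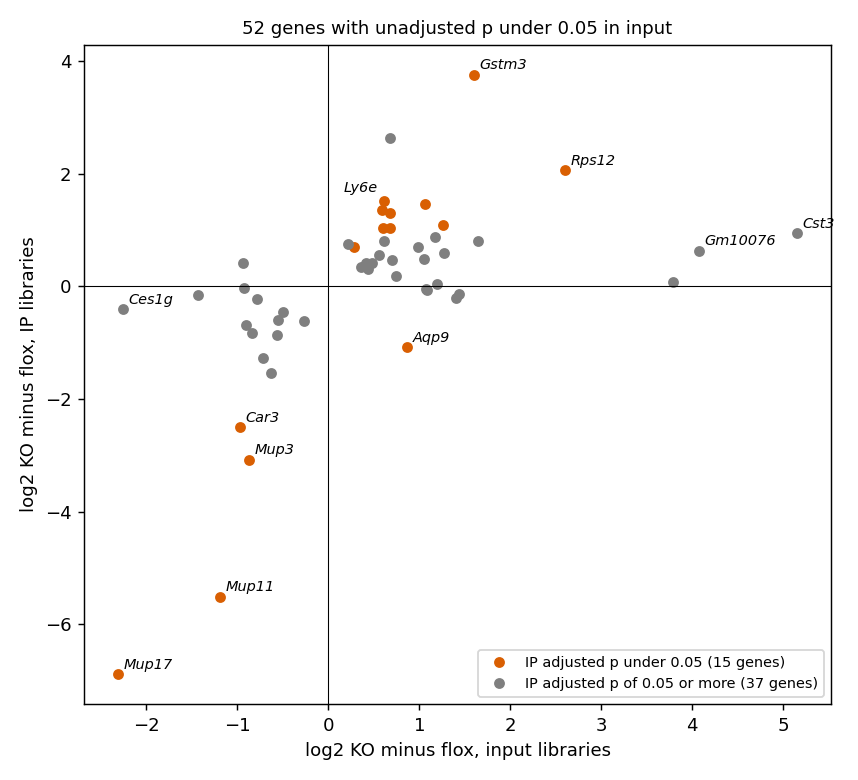
Each point is 1 of the 52 genes with an unadjusted p under 0.05 in input, at its log2 difference KO minus flox in the input libraries (horizontal) and in the IP libraries of the same animals (vertical); orange points passed an adjusted p of 0.05 in IP. Mup3, Mup11, Mup17 and Car3 lie at the lower left and Gstm3 and Rps12 at the upper right, and Aqp9 passed in IP with the opposite sign.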

How the data were processed

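Liver RNA of 16 mice was sequenced as 16 input and 16 IP libraries. The submitters' processing notes name fastp, a read trimmer, and STAR, an aligner. Their versions, the counting program, its strand setting and the genome build were not given in the sources used here. What the authors deposited is a table of estimated counts per Ensembl gene, not scaled between libraries; they were rounded to whole numbers here. Part of the values were not whole, as when reads are split between genes, so gene families with close copies are uncertain.

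Genes were named by position from a RefSeq table (GRCm38.p6, names and promoters only): 35547 of 55421 genes, and 2690 of the 2774 kept. Shifting all positions by 1000000 bases named 526 by the main rule.

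Genes with a mean of 50 CPM or more over the inputs were fitted with edgeR 4.0.16 (R 4.3.3): TMM factors, design of surgery plus genotype, quasi-likelihood F-tests and Benjamini-Hochberg adjustment with a threshold of 0.05. Within-surgery effects and the interaction came from 1 coefficient per group. Library measures were compared by exact 2-sided permutation within surgery (4900 splits). Intervals are at 95% and 3 counts served as the upper limit of a count of 0 in a library. That limit covers counting error only, since PCR copies were not marked by molecular identifiers. Alternatives were DESeq2 1.42.0, voom of limma 3.58.1, other factors and filters, a replicate block, age, and each library left out. Named genes are Mettl14, Trf and the fibrinogen genes, the 15 with a symbol and the smallest p in each direction, and up to 4 members of each list with the smallest p. The genes, the lists and these rules were chosen with earlier results of these data known, and no list result is independent support.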

Additional observations from a re-analysis of the deposited data

Results flagged for a closer look

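A single library far from the other 3 of its group was found in 11 of 148 groups of 4 tested, where chance gives about 5% of groups, or 1 in 20. Among genes lower in KO, Mup3 was lowest in hepatectomised KO replicate 2 (364 normalised CPM) and Mup17 in hepatectomised flox replicate 3 (3.34). Ncoa2 was lowest in sham flox replicate 3 (110) and highest in hepatectomised flox replicate 2 (536), Car3 was highest in hepatectomised flox replicate 4 (566) and Ppig lowest in sham KO replicate 2 (62.7). Among genes higher in KO, Aqp9 was lowest in sham KO replicate 1 (187) and Gstm3 in sham flox replicate 1 (19.5). Fgb was highest in sham KO replicate 2 (15350), the library that also had the largest share of counts in its 50 most abundant genes (42.6%). The total count was lowest of its group in hepatectomised KO replicate 2 (10566363).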

How the results depend on the processing

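The sign of 41 of 44 genes was the same in every alternative run, and the exceptions were the fibrinogen genes. Fgb turned to -0.01 with upper-quartile factors, -0.06 with library totals alone, -0.02 with DESeq2, 0 with 10 counts in every library, -0.01 without the 2 sham flox animals aged 77 days and, without 1 library, ranged from -0.02 (sham KO replicate 2) to 0.12. Fgg turned to -0.05, -0.1, -0.07 and -0.05 in the first 4 of these, to -0.08 without the animals aged 77 days, -0.03 at a mean of 200 CPM, -0.02 with age as a covariate and ranged from -0.04 to 0.08 without 1 library (below 0 in 7 of 16 cases). Fga turned to 0.05 with filterByExpr and 0.03 with no filter. Over both surgeries the count of genes called was 0 in the fit reported and 0 without any 1 library, 9 with DESeq2, 6 with filterByExpr, 10 with no filter and 1 with voom, and in sham animals it was 0, with 7 in DESeq2, 1 with filterByExpr, 11 with no filter and 0 without any 1 library. After hepatectomy the 1 call became 0 with upper-quartile factors, library totals alone, voom or age, 12 with DESeq2, 3 with filterByExpr, 5 with no filter and 0 to 2 without 1 library. The interaction gave 8 with DESeq2, 3 with no filter and 0 to 1 without 1 library; without hepatectomised flox replicate 3 it was 1 gene. In IP, filterByExpr gave 122 genes (36 higher and 86 lower) in place of 179 (91 and 88). The replicate numbers did not pair the animals (correlations of same-numbered animals -0.0346 to 0.0582, best match in 1 of 8), and with a replicate block edgeR called 0 genes over both surgeries (55 at an unadjusted p under 0.05) and 0 after hepatectomy. Counts of 0 were common: 1545 of 2774 kept genes had a count of 0 in at least 1 input, where Trf had 71870 to 169686 counts in every input. The causes of these changes were not tested.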
